A study of Mus musculus with 14 samples.

Results

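Of 9683 protein-coding autosomal genes measured in 14 RNA sequencing libraries of mouse T-cell acute lymphoblastic leukaemia (T-ALL), 42 were high only in the tumours classed as Lmo2-independent. A gene was taken as a member if its lowest level in the 6 libraries of independent tumours lay above its highest level in the other 8 libraries. The means of these libraries also had to differ by at least 0.5 on the scale log2(CPM + 1), where CPM is a gene's count scaled to a common library total. Named myeloid marker genes, Malt1 and genes with symbols starting Slc or Arh were not considered. The members amount to 0.434% of the genes considered. The mirror image, genes low only in independent tumours, held 25 genes, or 0.258%. The members were chosen by these values, so their levels in independent against other tumours are given as a description with no test.

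The libraries came from 8 Lmo2-induced mouse leukaemias, named VTL and a number. Each leukaemia began as thymocytes passed through irradiated C57BL/6-Ly5.1;FVB F1 mice, and frozen cells were then grown in C57BL/6-Rag1-/- hosts, which make no mature B or T cells of their own. RNA was taken from donor tumour cells of the host spleen, sorted as positive for both CD45.1 and CD45.2. By the labels, the 2 tumours VTL-19 and VTL-24 depended on Lmo2, VTL-33, VTL-44 and VTL-81 were independent of it, and the 3 others (VTL-21, VTL-25, VTL-153) are called evolving. All 8 were sequenced from untreated mice, and the 6 evolving and independent ones also from mice fed doxycycline (Dox) in pellets at 600 mg/kg. Whether Dox turns the transgene on or off is not stated in the labels, so with and without Dox are used as given. The design text of the series calls the treatment an activation, whereas the level of Lmo2 was lower with Dox in all 6 tumours that had both libraries. The replicates are separate tumours, each represented by 1 library per condition, and the labels give no age.

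Libraries held 18214415 to 24048281 counts, so that 3 counts, the floor used here for a gene with none, correspond to 0.125 to 0.165 CPM. Lmo2 was at 122 to 737 CPM in the dependent and evolving tumours without Dox, and at 596 CPM in VTL-33, against 9.23 CPM in VTL-44 and 27.5 CPM in VTL-81. With Dox it lay between 0.196 and 8.40 CPM. All 16 thymocyte lineage markers of a fixed list were measured, and their summed level was 7060 to 10700 CPM in every library. VTL-25 and VTL-153 without Dox resembled each other: only 4 genes exceeded 20 CPM in one while staying under 0.5 CPM in the other, compared with 21 to 131 genes in the remaining pairs of untreated tumours.

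Lmo2 is a bridging protein that joins DNA-binding factors in blood progenitors, and its enforced expression in thymocytes leads to T-ALL. Ikaros, whose loss the series title links to independence of the oncogene, is a zinc finger factor that shapes chromatin in lymphocytes. The members are no single pathway. By gene function, assigned after their names were seen, 13 encode surface receptors, ligands or other membrane and secreted proteins, 8 transcription or chromatin factors, 10 signalling, calcium-binding or cytoskeletal proteins, 8 enzymes and organelle proteins, and 1 an RNA-tailing enzyme. The other 2 have no role that could be assigned.

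Promoter sequences are shown first, for 4 members whose window of 250 bases before the start site holds the hexamer TGGGAA (reverse complement TTCCCA), the core that Ikaros proteins recognise and that is also found inside sites of the Notch partner RBPJ. C1qtnf6 and Ptk7 are among the members with the largest differences, and Zfp184 and Zscan12 lie near each other on chromosome 13. No annotated exon lies in these windows. The C1qtnf6 window lies inside the gene as placed by GENCODE (78523346 to 78531416), before an internal RefSeq start site. They are from RefSeq on GRCm38.p6 (mm10) and are written 5′ to 3′ along the gene, with the hexamer in capitals on either strand: C1qtnf6 at chr15:78529652-78529901 (minus strand), Ptk7 at chr17:46629505-46629754 (minus strand), Zfp184 at chr13:21944844-21945093 (plus strand) and Zscan12 at chr13:21362570-21362819 (plus strand).
C1qtnf6: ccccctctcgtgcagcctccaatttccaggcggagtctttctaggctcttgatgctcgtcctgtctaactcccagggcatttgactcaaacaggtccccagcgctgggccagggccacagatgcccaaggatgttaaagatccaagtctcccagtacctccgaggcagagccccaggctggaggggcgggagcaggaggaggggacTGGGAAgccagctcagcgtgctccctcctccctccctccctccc
Ptk7: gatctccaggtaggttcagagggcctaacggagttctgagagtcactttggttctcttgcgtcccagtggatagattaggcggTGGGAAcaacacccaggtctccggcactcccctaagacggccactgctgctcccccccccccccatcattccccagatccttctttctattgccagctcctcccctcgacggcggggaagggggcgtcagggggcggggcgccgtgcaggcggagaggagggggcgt
Zfp184: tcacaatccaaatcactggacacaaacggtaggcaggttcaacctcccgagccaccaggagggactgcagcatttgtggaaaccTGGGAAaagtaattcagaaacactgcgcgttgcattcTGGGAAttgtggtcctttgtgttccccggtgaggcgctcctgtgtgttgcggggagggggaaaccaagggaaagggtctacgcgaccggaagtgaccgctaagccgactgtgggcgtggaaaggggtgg
Zscan12: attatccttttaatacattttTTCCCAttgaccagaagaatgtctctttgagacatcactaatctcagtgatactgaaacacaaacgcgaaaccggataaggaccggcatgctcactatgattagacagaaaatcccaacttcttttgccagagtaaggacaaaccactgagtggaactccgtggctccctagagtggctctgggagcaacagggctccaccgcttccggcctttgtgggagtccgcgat

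The hexamer stands at position -44 from the internal RefSeq start site in C1qtnf6 and at -167 from the start site in Ptk7. Zfp184 holds it 2 times, the second copy 1 base before a RUNX core (TGTGGT). Windows were found for 32 of the 42 members, and 11 of these, or 34.4%, held TGGGAA on either strand in at least 1 window, against 24.1% of the 27025 genes of the table of promoters. The other members with it were Car5a, Fam110a, Ffar2, Iqsec1, Maml3, Tlr2 and Tspan4. The ETS core CCGGAA was in 7 members (21.9%, against 13.6% of genes), the MYC E-box CACGTG in 4 (12.5% against 6.86%), the RUNX core in 5 (15.6% against 15.9%), the E-box CAGCTG in 4 (12.5% against 14.7%), the AP-1 site TGACTCA in 2 (6.25% against 5.16%) and the GATA core AGATAA in 1 (3.12% against 11.4%). These are letter matches on both strands, with no test, and none is shown to be bound. Members' windows also differed in composition, with a median GC content of 63.0% and 12 CpG, against 52.4% and 6 for all 32851 windows. These shares and medians set members beside all genes of the table of promoters, not beside the genes considered by the rule. Members are measured protein-coding genes, so the differences cannot be read as particular to them.

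Differences between independent and other libraries ran from 0.58 (Zfp282) to 4.29 (C1qtnf6) on the log2(CPM + 1) scale, with a median of 1.63. The median over all genes considered was -0.02, and 13.0% of them differed by 0.5 or more. For 32 members the difference was at least 1, for 13 at least 2 and for 8 at least 3. The gap, the lowest independent minus the highest other library, was narrow for most of them: its median was 0.13, it was under 0.1 for 18 members and at least 0.5 for 7. Those 7 were C1qtnf6 (1.75), Cabp1 (0.98), Tmem55a (0.98), Apol10b (0.86), Cdr2l (0.73), Calml4 (0.59) and Tmem132b (0.53). The members span a wide range of levels, 18 of them standing at 10 CPM or more in every independent library and 6 under 1 CPM in every other library.

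**Figure D1:**
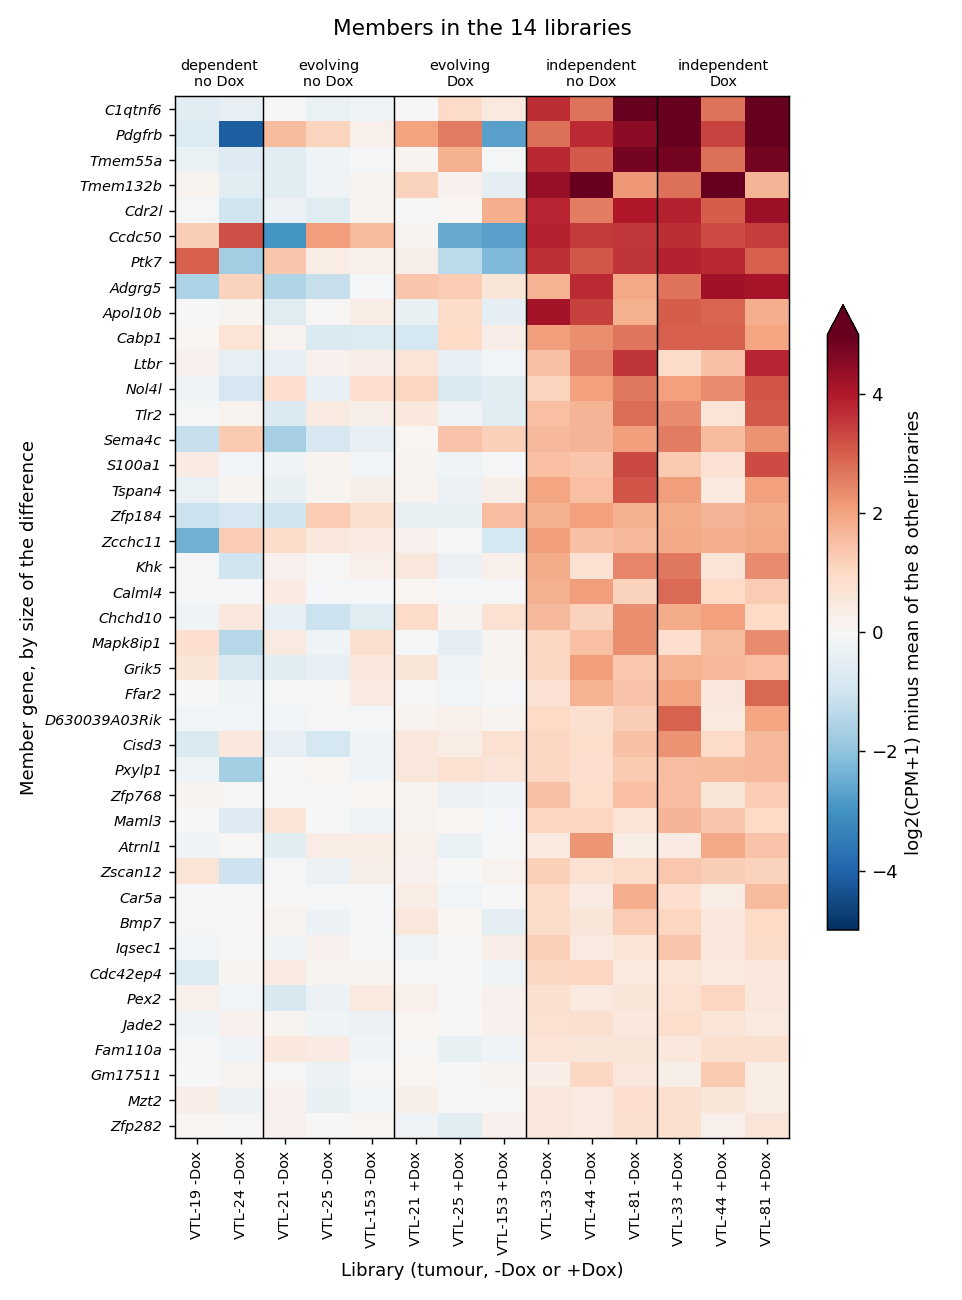
Level of 41 of the 42 members (rows, by size of the difference) in each of the 14 libraries (columns, by group), as log2(CPM + 1) minus the member's mean over the 8 libraries of dependent and evolving tumours. The colour scale ends at 5, which values in the top rows pass. All 6 independent columns are red in every row by the rule; among the other 8 columns Pdgfrb, Ccdc50 and Ptk7 vary most.

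Surface receptors, ligands and membrane proteins formed the largest group, with 13 members and a median difference of 2.01. C1qtnf6 (ENSMUSG00000022440, chromosome 15, 78523346 to 78531416), which encodes a secreted protein of the C1q and TNF-related family, had both the largest difference and the widest gap. It stood at 20.5, 9.77 and 62.3 CPM without Dox in VTL-33, VTL-44 and VTL-81, and at 109, 9.99 and 65.4 CPM with Dox. The dependent tumours VTL-19 and VTL-24 had 0.160 and 0.232 CPM. VTL-21, VTL-25 and VTL-153 had 0.669, 0.333 and 0.416 CPM without Dox and 0.702, 2.21 and 1.32 CPM with it. The group means were 30.8 ± 27.7 CPM (SD, n = 3) in independent tumours without Dox and 61.6 ± 49.8 CPM (n = 3) with it. VTL-44 was the lowest of the independent tumours in both conditions.

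Pdgfrb (ENSMUSG00000024620, chromosome 18, 61045150 to 61085061), a receptor tyrosine kinase for platelet-derived growth factors that is a marker of pericytes and fibroblasts, was the member with the highest mean level in independent tumours (349 CPM). The group means were 241 ± 133 CPM without Dox and 457 ± 240 CPM with Dox (SD, n = 3 each). Its values there were 116, 227 and 381 CPM without Dox and 611, 181 and 580 CPM with Dox in VTL-33, VTL-44 and VTL-81. It was not silent elsewhere: the evolving tumours VTL-21, VTL-25 and VTL-153 had 50.5, 36.2 and 19.5 CPM without Dox and 69.9, 105 and 1.62 CPM with it. VTL-19 had 9.76 CPM and VTL-24 no count, which allows up to 0.139 CPM. The lowest independent library (VTL-33 without Dox) and the highest other one (VTL-25 with Dox) were 0.14 apart, so the separation rests on a small gap despite a mean difference of 4.08.

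Pdgfrb was the only member in any of 18 fixed gene and marker lists, the stromal and endothelial markers. Of the 13 markers of that list, 4 were in the table and 9, Col3a1, Sparc, Cdh5, Kdr, Vwf, Lepr, Dcn, Bgn and Cxcl12, were not among the listed genes. Without Pdgfrb the summed level of the list was 139 to 316 CPM in independent libraries and 129 to 173 CPM in the others. Col1a2 ranged from 10.1 to 166 CPM against 0 to 15.6 CPM, Col1a1 from 0.381 to 25.3 CPM against 0.294 to 20 CPM, and Pecam1 from 117 to 166 CPM against 124 to 161 CPM. The cells had been sorted as positive for both CD45 forms, which stromal and endothelial cells lack. How fully the sort left out such cells was not tested. What part RNA of such cells had in the Pdgfrb level was not tested. In such bulk libraries more cells of a type and more RNA per cell cannot be told apart, here or for the other members.

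Ptk7 (chromosome 17, 46564471 to 46629504), a kinase-dead receptor of Wnt and planar polarity signalling, was at 79.3, 54.1 and 75.5 CPM without Dox and 91.4, 86.3 and 50.4 CPM with Dox in VTL-33, VTL-44 and VTL-81. The highest other library was VTL-19 at 49.96 CPM, so that Ptk7 met the rule by a gap of 0.01. All other libraries were at 0.393 to 15.6 CPM. The narrow gap was therefore due to 1 dependent tumour.

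Adgrg5, an adhesion G protein-coupled receptor, was at 8.88, 38.5 and 10.3 CPM without Dox and 18.9, 53.5 and 51.4 CPM with Dox in VTL-33, VTL-44 and VTL-81. The other libraries ranged from 0 to 6.82 CPM, with a median of 2.65 CPM. Tmem132b, a single-pass membrane protein, was at 29.4, 98.7 and 5.67 CPM without Dox and 9.14, 54.1 and 3.84 CPM with it, against 0.0446 to 2.36 CPM elsewhere. VTL-44 was the highest tumour for both genes.

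Ltbr, the lymphotoxin beta receptor, ranged from 1.61 to 17.5 CPM in independent libraries (median 4.59) and from 0 to 1.10 CPM in the others (median 0.365). Tlr2, a Toll-like receptor for bacterial lipoproteins, ranged from 1.75 to 13.8 CPM against 0.0892 to 1.55 CPM. Ffar2, a receptor for short-chain fatty acids, ranged from 0.728 to 7.36 CPM against 0 to 0.520 CPM. All 3 are also known from myeloid cells and were highest in VTL-81, so myeloid markers are given beside them. The summed level of 18 myeloid markers, all measured, was 128 to 2220 CPM in independent libraries and 58.7 to 316 CPM in the others. It was 1720 CPM in VTL-44 without Dox, 889 CPM in VTL-44 with Dox and 2220 CPM in VTL-81 with Dox. In VTL-33 (128 and 267 CPM) and in VTL-81 without Dox (280 CPM) the sum was inside the range of the other classes. Some single markers were not. In VTL-33 with Dox, Csf1r was at 39.0 CPM and C1qb at 8.59 CPM, against at most 36.2 and 7.07 CPM in the other classes. In VTL-81 without Dox, Elane was at 5.84 CPM against at most 4.73 CPM. Others, such as S100a9 (23.7 and 48.8 CPM against at most 77.4 CPM), stayed inside. The median difference of the myeloid list was 1.8 on the log2(CPM + 1) scale. In these 3 libraries Tlr2 was at 4.09, 8.08 and 11.4 CPM. Ltbr was at 2.67, 1.61 and 14.8 CPM there, and Ffar2 at 0.905, 3.68 and 2.09 CPM. The rule itself puts these values above the other libraries, and the part of myeloid RNA in the levels of the 3 genes was not tested.

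Sema4c, a transmembrane semaphorin that signals through plexins, ranged from 27.4 to 54.3 CPM in independent libraries against 2.01 to 24.9 CPM elsewhere. Bmp7 (chromosome 2, 172868012 to 172940321), a secreted ligand of the BMP family, had a high level in all libraries, 83.0 to 136 CPM against 40.4 to 82.2 CPM, and a difference of 0.90. Grik5, a kainate receptor subunit, ranged from 9.27 to 20.8 CPM against 1.99 to 6.77 CPM, with a gap of 0.40. The tetraspanin Tspan4 ranged from 1.26 to 13.0 CPM against 0.223 to 0.981 CPM. Atrnl1, an attractin-like membrane protein, ranged from 1.05 to 6.22 CPM against 0.0446 to 1.04 CPM, and its gap of 0.0037 was the narrowest of all members. Of the Tspan4 exon bases, 13.4% are shared with Chid1 on the opposite strand, and the strand setting of the counting was not stated.

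**Figure D2:**
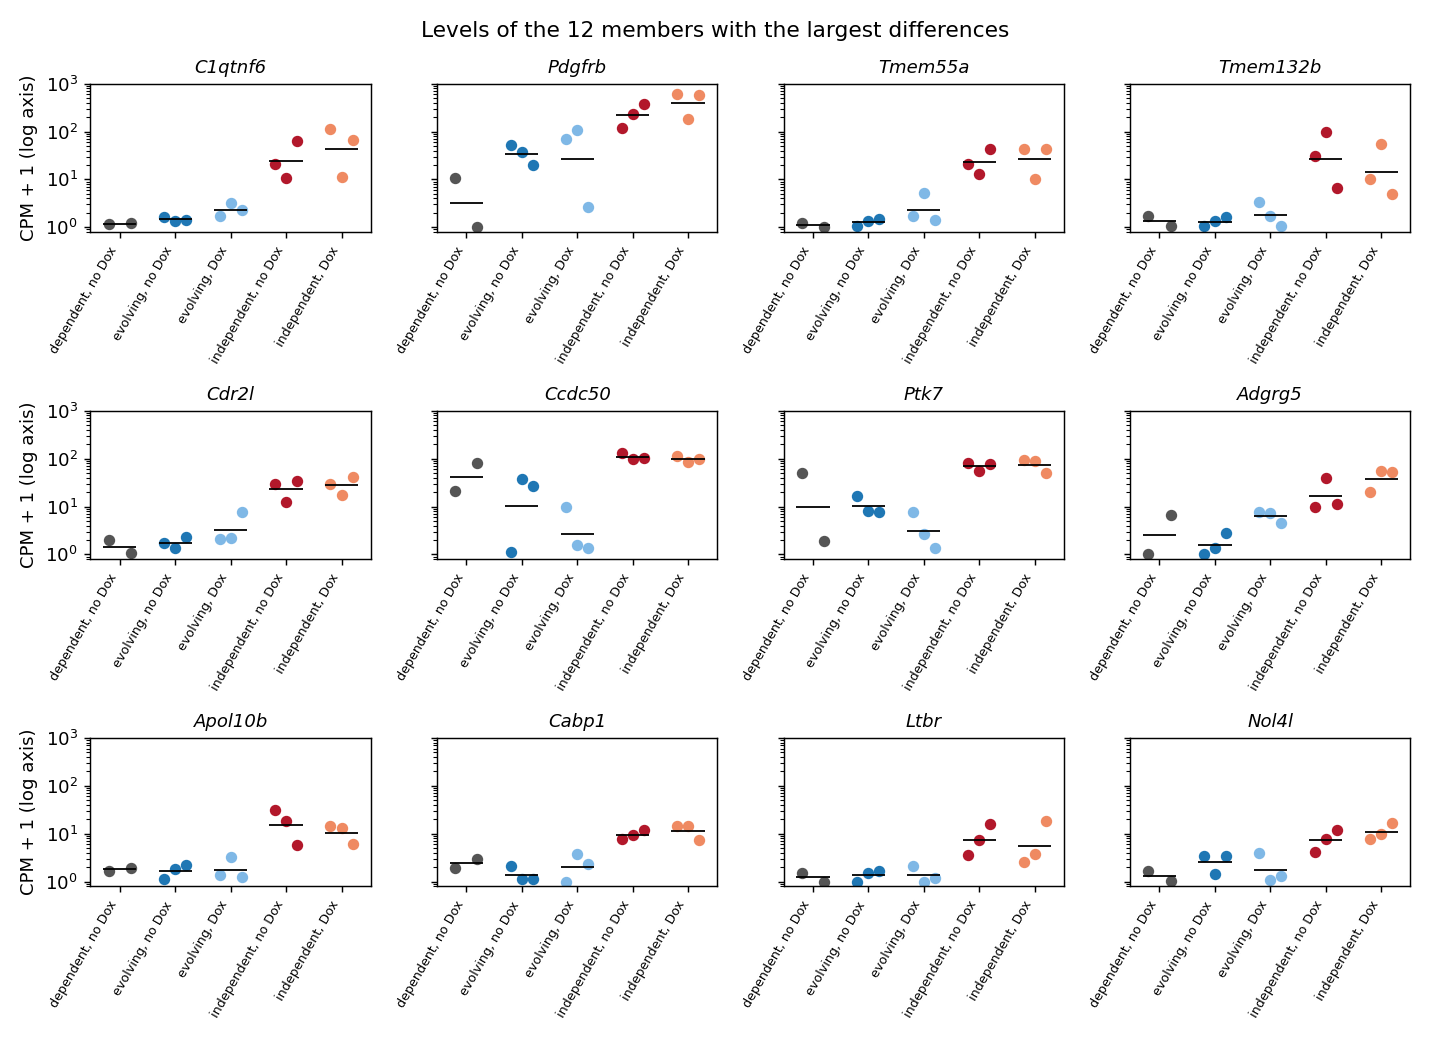
Levels of the 12 members with the largest differences, as CPM + 1 on a log axis, in the 5 groups. Each point is 1 library, placed within a group in the order VTL-19 and VTL-24, VTL-21, VTL-25 and VTL-153, or VTL-33, VTL-44 and VTL-81, and each line is the mean of the group on the log scale. C1qtnf6, Tmem55a and Cdr2l are clear of the other libraries, while Ptk7 and Ccdc50 have 1 dependent tumour (VTL-19 or VTL-24) close to the independent ones.

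Transcription and chromatin factors made up 8 members, with a median difference of 1.13. Jade2, a PHD finger subunit of histone acetyltransferase complexes, ranged from 119 to 160 CPM against 70.1 to 98.9 CPM. Its gap of 0.27 was wide for a difference of 0.68, since its levels were even within each class.

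Maml3, a mastermind-like coactivator of Notch, was at 30.5, 30.9 and 22.8 CPM without Dox and 48.0, 37.7 and 28.9 CPM with Dox in VTL-33, VTL-44 and VTL-81, against 8.70 to 22.4 CPM elsewhere. A fixed list of Notch pathway and target genes did not hold Maml3. Of its 23 genes, 15 were measured, none met the rule, and their median difference was 0.09. None of the 15 passed edgeR's test for Dox in the independent or the evolving tumours.

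The genes Zfp184, Zscan12, Zfp282 and Zfp768, of the large zinc finger family of DNA-binding proteins, differed by 1.83, 1.11, 0.58 and 1.21. Zfp184 was even in independent tumours, at 6.51, 8.09 and 6.49 CPM without Dox and 6.85, 6.16 and 6.86 CPM with Dox in VTL-33, VTL-44 and VTL-81. In the others it was either low or intermediate, at 0.0533 and 0.232 CPM in the dependent tumours, 0.0892, 4.28 and 2.86 CPM in VTL-21, VTL-25 and VTL-153 without Dox, and 0.702, 0.687 and 5.35 CPM with it. Zfp768 ranged from 0.970 to 2.71 CPM against 0.0491 to 0.452 CPM, and Zscan12 from 9.18 to 14.3 CPM against 1.90 to 8.69 CPM. Nol4l, a nucleolar protein-like gene, ranged from 3.06 to 15.6 CPM against 0.0463 to 2.96 CPM. Zfp282 (57.5 to 84.4 CPM against 32.8 to 56.8 CPM) had the smallest difference of all members.

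Zcchc11 (also called Tut4), a terminal uridylyltransferase that adds uridines to RNA tails and to let-7 precursors, was at 124, 80.2 and 89.1 CPM without Dox and 107, 103 and 109 CPM with Dox in VTL-33, VTL-44 and VTL-81. The dependent tumours were far apart from each other, at 4.53 CPM in VTL-19 and 70.1 CPM in VTL-24. The evolving tumours VTL-21, VTL-25 and VTL-153 had 55.0, 41.3 and 38.1 CPM without Dox and 33.4, 27.3 and 14.8 CPM with it. All 3 were lower with Dox.

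Among the 10 signalling, calcium-binding and cytoskeletal members the median difference was 1.64. Ccdc50 (chromosome 16, 27388869 to 27452218), a ubiquitin-binding adaptor, had an even level in independent tumours, 127, 99.3 and 102 CPM without Dox and 114, 85.3 and 96.2 CPM with Dox in VTL-33, VTL-44 and VTL-81. In the other tumours it was scattered: 19.7 and 81.6 CPM in VTL-19 and VTL-24, 0.134, 36.3 and 25.4 CPM in VTL-21, VTL-25 and VTL-153 without Dox, and 8.83, 0.540 and 0.344 CPM with Dox. Ccdc50 thus lay in the same narrow range in all independent libraries, and over a far wider range in the others. Cdr2l, a paralogue of the cerebellar degeneration-related antigen gene Cdr2, ranged from 11.4 to 39.8 CPM against 0.0463 to 6.53 CPM.

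Calcium-binding proteins of the calmodulin and S100 families were present 3 times. Cabp1 ranged from 6.31 to 13.7 CPM in independent libraries against 0 to 2.70 CPM, S100a1 from 1.79 to 16.0 CPM against 0.491 to 1.28 CPM, and Calml4 from 1.12 to 6.51 CPM against 0 to 0.402 CPM. Calml4 had no count in 6 of the 8 other libraries. Mapk8ip1, a scaffold of JNK signalling, ranged from 9.22 to 28.3 CPM against 1.11 to 9.06 CPM. Iqsec1, an exchange factor for ARF proteins (52.8 to 99.3 CPM against 33.5 to 48.5 CPM), and Cdc42ep4, an effector of Cdc42 (56.8 to 86.6 CPM against 24.9 to 54.8 CPM), were abundant in all classes and differed by 0.86 and 0.73. Fam110a and Mzt2, which encode proteins of the spindle pole and centrosome, differed by 0.67 and 0.61.

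Enzymes and organelle proteins numbered 8, with a median difference of 1.52. Tmem55a (also called Pip4p2; chromosome 4, 14864076 to 14915176), a phosphoinositide phosphatase of endosomes and lysosomes, was at 19.9, 11.9 and 41.6 CPM without Dox and 42, 9.36 and 42 CPM with Dox in VTL-33, VTL-44 and VTL-81. The other libraries were at 0 to 4.27 CPM, with a median of 0.387 CPM. Apol10b, of the apolipoprotein L family, ranged from 4.92 to 30.0 CPM against 0.134 to 2.26 CPM. Khk, which encodes ketohexokinase of fructose metabolism, ranged from 14.9 to 62.4 CPM against 4.12 to 14.1 CPM. For Tmem55a and Khk, VTL-44 stood below both other independent tumours.

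Chchd10 and Cisd3, which encode mitochondrial proteins, ranged from 7.80 to 21.2 CPM against 1.08 to 7.47 CPM and from 4.20 to 12.5 CPM against 0.541 to 3.83 CPM. Car5a, a mitochondrial carbonic anhydrase, was low everywhere, 0.582 to 3.27 CPM against 0.0981 to 0.552 CPM. Pex2, a ubiquitin ligase of the peroxisome import machinery, ranged from 31.9 to 47.6 CPM against 12.4 to 31.5 CPM. Pxylp1, a phosphatase of glycosaminoglycan synthesis, ranged from 22.1 to 39.1 CPM against 2.96 to 20.8 CPM. Chchd10 shares 9.84% of its exon bases with Mmp11 on the opposite strand. The members without an assigned role, both predicted genes, differed by 0.66 and 1.40.

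The 3 independent tumours did not carry the members at the same levels. Averaged over both libraries, 18 members were highest in VTL-81, 15 in VTL-33 and 9 in VTL-44, and 23 were lowest in VTL-44. Over all genes considered, 34.6% were highest in VTL-81, 23.5% in VTL-33 and 41.8% in VTL-44, and 40.4% were lowest in VTL-44. C1qtnf6 had means of 64.9, 9.88 and 63.8 CPM in VTL-33, VTL-44 and VTL-81, whereas Tmem132b had 19.3, 76.4 and 4.75 CPM. Relative to the mean of VTL-44 and VTL-81, VTL-33 was lowest for Ltbr (0.206), Atrnl1 (0.298), Adgrg5 (0.361) and S100a1 (0.382), and highest for 1 predicted gene (2.73), Calml4 (2.42), Apol10b (2.20) and C1qtnf6 (1.76). For 22 members (52.4%) the range over the tumours was larger than the largest step with Dox within a tumour, a share near the 55.9% of all genes considered.

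Over the 861 pairs of members, the median Pearson correlation across the 6 independent libraries was 0.08, with 65 pairs above 0.8 and 28 below -0.8. These libraries are pairs from the same 3 tumours, and the value is a description. Some pairs of members thus varied together among the independent libraries and others in opposite directions. The same values for pairs of all genes considered are not given, so these cannot be read as particular to the members. Over all 14 libraries, the genes that were not members and correlated most with the mean standardised level of the members were Kcnip3 (r = 0.965), Sh3tc1 (0.913), Itpripl2 (0.909) and C230035I16Rik (0.9). Kcnip3 ranged from 1.08 to 3.22 CPM in independent libraries against 0 to 0.552 CPM, and is not protein-coding in the table. Sh3tc1 (1.84 to 7.58 CPM against 0.0491 to 1.91 CPM) and Itpripl2 (2.18 to 17.5 CPM against 0.0491 to 2.56 CPM) missed the rule by a small overlap.

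At the edges of the rule, the members with the narrowest gaps were Atrnl1 (0.0037), Fam110a (0.0067), Ptk7 (0.01) and Bmp7 (0.01), and those with the smallest differences included Zfp282 (0.58), Mzt2 (0.61) and a predicted gene (0.66). Just outside by overlap were Cttnbp2nl (difference 1.16, gap -0.0030), Mtch1 (0.51, gap -0.0044), and Wfdc1 (0.81) and Shank2 (0.76), each with a gap of 0 because the lowest independent and the highest other library both had no count. Ivd (0.41), Commd9 (0.40), Mob2 (0.38) and Aph1a (0.33) were clear of the other libraries and had too small a difference. With no minimum difference 47 genes did not overlap, or 0.485% of those considered.

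**Figure D3:**
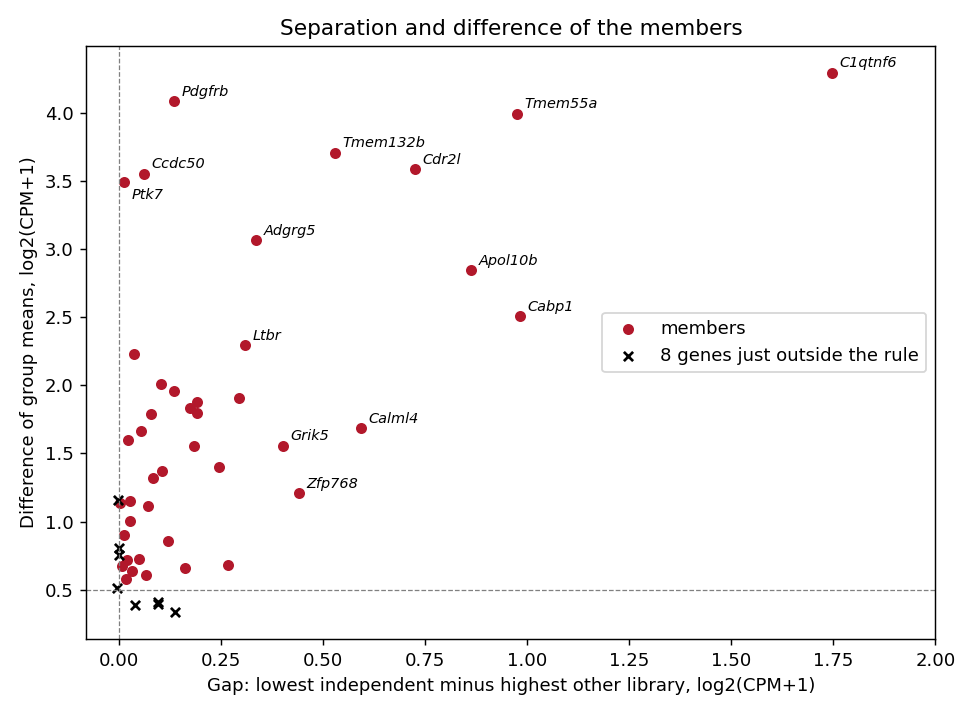
Difference of the mean log2(CPM + 1) between the 6 independent and 8 other libraries (vertical axis) against the gap between the lowest independent and the highest other library (horizontal axis), for the 42 members (circles) and 8 genes just outside the rule (crosses). Dashed lines mark a gap of 0 and a difference of 0.5. C1qtnf6 is alone at the upper right, and Pdgfrb, Ccdc50 and Ptk7 pair large differences with gaps of at most 0.14.

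Fewer genes met the rule as libraries with Dox were added, and adding any library can only narrow a gap. The numbers do not show whether libraries with Dox narrowed it more than others would. The 8 libraries without Dox alone gave 468 genes that met the rule, the same 8 with the 3 evolving libraries with Dox added gave 83, the same 8 with the 3 independent libraries with Dox added gave 319, and all 14 gave 42. The difference of means was taken anew for each set of libraries, and 41 of the 42 members were among the 319. The highest library among the other 8 was an evolving tumour with Dox for 28 members, an evolving tumour without Dox for 7 and a dependent tumour for 7. Over all genes considered an evolving library with Dox was the highest of the other 8 for 46.9%. The mean level of evolving tumours with Dox was above that of dependent tumours for 33 members (78.6%, against 49.6% of all genes considered), with a median difference of 0.17.

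With Dox, 1 member changed in the evolving tumours at an adjusted p under 0.05 by edgeR. It was Sema4c, which rose in every tumour. Over all 12360 genes tested, 2.13% passed, 136 higher (1.1%) and 127 lower (1.03%), so that 1 of 42 members (2.38%) is near the background. The 42 include 6 members under 1 CPM in every library of the dependent and evolving tumours. Their few counts there leave little room for a call in tests of these tumours. Shares over the 42 in such tests are therefore affected by the rule. In VTL-21, VTL-25 and VTL-153, Sema4c was at 2.01, 4.28 and 6.24 CPM without Dox and at 9.23, 24.9 and 20.6 CPM with it. The means were 4.18 ± 2.12 CPM and 18.2 ± 8.08 CPM (SD, n = 3 each), and all 3 libraries with Dox were above all 3 without it. Its log2 change was 2.19 (SE 0.28, n = 3 tumours, edgeR adjusted p = 0.0177), and it lost the call without VTL-25 (1.99, edgeR adjusted p = 0.0804) and with no replicate block (2.19, edgeR adjusted p = 0.0713). The dependent tumours VTL-19 and VTL-24 were at 3.31 and 22.6 CPM, so that the level of evolving tumours with Dox was also that of 1 dependent tumour without it.

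By the same test, 10 members (23.8%) had an unadjusted p under 0.05 in the evolving tumours, against 16.7% of all genes. Lower with Dox in all 3 evolving tumours, but not past the threshold, were Zcchc11 (log2 change -0.85, SE 0.19, edgeR adjusted p = 0.0775) and Ptk7 (-2.22, SE 0.50, edgeR adjusted p = 0.0809). Ptk7 was at 15.6, 7.19 and 6.61 CPM without Dox, and at 6.77, 1.62 and 0.393 CPM with it, in the same order of tumours. Without VTL-21 Ptk7 passed (-2.87, edgeR adjusted p = 0.0492), and by DESeq2, which called 1314 genes, both did. Higher with Dox, and also not past the threshold, were Pxylp1 (0.76, edgeR adjusted p = 0.0937), Cdr2l (1.59, edgeR adjusted p = 0.0958), Chchd10 (1.80, edgeR adjusted p = 0.121), Cisd3 (1.72, edgeR adjusted p = 0.121) and Adgrg5 (3.61, edgeR adjusted p = 0.143). By direction alone, 10 members (23.8%) were higher with Dox in all 3 evolving tumours and 4 (9.52%) lower, against 14.6% and 20.7% of all genes considered. Without VTL-21 the numbers were 13 higher and 12 lower. The share of all genes considered that were higher also rose then, as given in the closing section. The share that were lower without VTL-21 is not given. Whether the excess of higher over lower members rested on that tumour can therefore not be read from these numbers. For Pdgfrb the tumours went opposite ways, with steps on the log2(CPM + 1) scale of 0.46 in VTL-21, 1.51 in VTL-25 and -2.97 in VTL-153, and Ccdc50 had steps of 3.12, -4.60 and -4.30.

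In the independent tumours no member passed edgeR's test for Dox, and no gene of the 12360 did (0.0%). Of these genes 87 had an unadjusted p under 0.05 (0.704%, a share well below that threshold), among them 1 member, Pxylp1. The test shared its estimate of spread with the evolving tumours, whose partner libraries correlated less. It could therefore miss changes in the independent tumours. DESeq2 and limma voom, fitted to the same libraries of both classes, also called 0 members. Pxylp1 was at 25.3, 22.1 and 31.6 CPM without Dox in VTL-33, VTL-44 and VTL-81 and at 36.5, 37.9 and 39.1 CPM with it, a log2 change of 0.56 (SE 0.18, edgeR adjusted p = 1). Maml3 (0.45, SE 0.21) and Cdc42ep4 (-0.27, SE 0.16) had the next smallest p. The estimates for Pdgfrb (0.90, SE 0.94) and C1qtnf6 (0.83, SE 0.62) had wide errors, with steps in VTL-33 (2.39 and 2.36 on the log2(CPM + 1) scale) well above those in VTL-44 (-0.32 and 0.03) and VTL-81 (0.60 and 0.07).

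In VTL-33, 8 members (19.0%, against 3.23% of all genes considered) were higher with Dox by at least 1 on the log2(CPM + 1) scale, among them Pdgfrb (116 to 611 CPM), C1qtnf6 (20.5 to 109 CPM) and Tmem55a (19.9 to 42 CPM). The corresponding numbers were 0 members in VTL-44 (against 1.0% of all genes) and 3 in VTL-81 (7.14%, against 6.89%). Lower by at least 1 were 2 members in VTL-33 (4.76%, against 2.28%), 5 in VTL-44 (11.9%, against 5.89%) and 2 in VTL-81 (4.76%, against 0.847%). VTL-33 was also the only independent tumour with Lmo2 above 100 CPM without Dox, and its Lmo2 level with Dox was 1.27 CPM. Whether this bears on the members was not tested, since it is 1 tumour. By direction, 9 members (21.4%, against 6.95%) were higher with Dox in all 3 independent tumours and 4 (9.52%, against 10.3%) lower. Of these, 5 were higher in all 6 tumours sequenced both ways: Adgrg5, C1qtnf6, Cdr2l, Cisd3 and Pxylp1. The share of all genes considered that were higher in all 6 is not given, so the count cannot be read as particular to the members. Some of these steps were small, such as 0.03 for C1qtnf6 in VTL-21, 0.03 for Cdr2l in VTL-33 and 0.09 for Cisd3 in VTL-44.

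**Figure D4:**
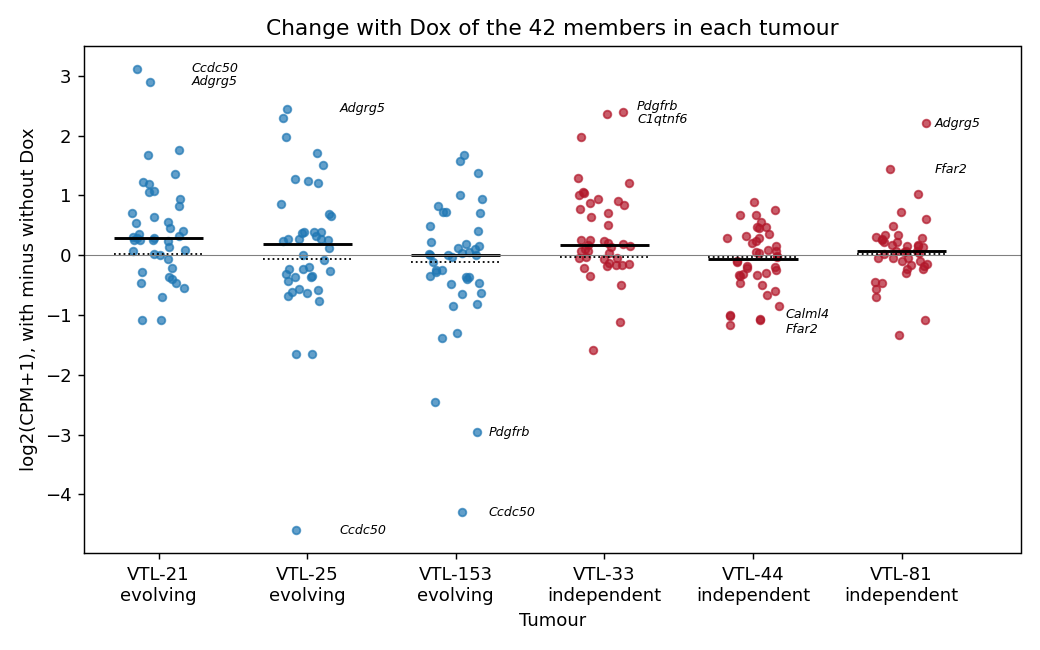
Change of each of the 42 members with Dox in the 6 tumours with paired libraries, as log2(CPM + 1) with minus without Dox. Each point is 1 member, the solid line is the median of the members and the dotted line that of all genes considered; the members with the largest steps are named. The medians of the members lie between -0.06 and 0.29, and Ccdc50 has the most extreme steps, in VTL-21, VTL-25 and VTL-153.

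The change with Dox did not differ between independent and evolving tumours for any member at an adjusted p under 0.05 by edgeR, while 15 genes did (0.121%), 6 higher (0.0485%) and 9 lower (0.0728%). At an unadjusted p under 0.05 there were 5 members (11.9%, against 9.53% of genes). DESeq2 called 3 members among 549 genes and limma voom 0 among 69 genes. The smallest p were those of Sema4c, with a difference of changes, independent minus evolving, of -1.85 (SE 0.38, edgeR adjusted p = 0.144), Zcchc11 (1.02, SE 0.26, edgeR adjusted p = 0.238) and Ptk7 (2.35, SE 0.66, edgeR adjusted p = 0.301), which are the members called by DESeq2. For these 3 genes a difference in the response to Dox was therefore called or not depending on the method.

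Between evolving and dependent tumours without Dox, 5 libraries that all lie on the lower side of the rule, no member and none of 12348 genes passed edgeR's test (0.0%). DESeq2 called 64 genes and limma voom 0, with 0 members among them. By edgeR, 419 of the 12348 genes had an unadjusted p under 0.05, and 1 was a member. That member was Zfp184, higher in evolving tumours by 3.95 on the log2 scale (SE 1.45, edgeR adjusted p = 1), although VTL-21 at 0.0892 CPM lay inside the range of the dependent tumours. Chchd10 (-1.24, SE 0.53) and Sema4c (-1.69, SE 0.74) followed, and the direction of Sema4c turned to 0.31 without VTL-24. Among the 2 dependent tumours the levels of several members were far apart, as for Ptk7 (49.96 and 0.926 CPM), Zcchc11 (4.53 and 70.1 CPM), Ccdc50 (19.7 and 81.6 CPM) and Adgrg5 (0 and 5.60 CPM). Which dependent tumour was higher varied from gene to gene.

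Members lay on 17 of the 19 autosomes, with 5 on chromosome 7 (11.9%, against 7.98% of the genes considered). None were on chromosomes 12 and 14, which hold 3.88% and 3.7% of the genes considered. Only Zfp768 and the predicted gene Gm17511, both on chromosome 7, were within 200 kb of each other, 56.4 kb apart, with Itgal between them at 689 CPM in independent and 822 CPM in other libraries on average. Zfp184 and Zscan12 were 573 kb apart in a stretch of zinc finger and histone genes, where 9 of 12 genes had a higher mean in independent libraries, with a median difference of 0.37. Between C1qtnf6 and Apol10b, 927 kb apart on chromosome 15, 14 of 15 genes did, 8 of them by at least 0.5, with a median of 0.58. Over all genes considered the median difference was -0.02, and 13.0% differed by at least 0.5. The share of all genes with a higher mean in independent libraries is not given.

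The genes of that stretch of chromosome 15 were looked at after these values were seen. Kctd17 was at 46.4, 47.8, 87.5 and 29.2 CPM in VTL-33 and VTL-81 without and with Dox, at 0.888 and 0.243 CPM in VTL-44, and at 0 to 5.20 CPM in the other classes, so that VTL-44 was like the other classes. Il2rb, the beta chain of the receptors for interleukins 2 and 15, ranged from 9.57 to 86.1 CPM in independent libraries. It was at 0 to 2.04 CPM in the dependent and evolving tumours without Dox and at 13.6, 130 and 9.18 CPM in VTL-21, VTL-25 and VTL-153 with Dox. Csf2rb, the common beta chain of myeloid cytokine receptors, was highest in VTL-44 without Dox (34.5 CPM) and VTL-81 with Dox (24 CPM), the libraries with the highest myeloid marker sums. These neighbours differ from C1qtnf6 in which libraries were high.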

How the data were processed

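The data were RNA sequencing libraries of 14 samples. STAR 2.5.2b, mm10 and featureCounts are named in the submitters' processing notes as aligner, genome build and counter. The annotation and strand setting are not given in the sources used here. The deposited values were raw counts per gene that the authors had not normalised, for 12421 genes, all of which reached 1 CPM in 2 or more libraries. The table also held 42 per-sample columns on other scales, not used here. The members, roles and gene lists were chosen with earlier results of these data known.

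Levels are CPM from the column totals. Tests used the counts with edgeR 4.0.16 in R 4.3.3 (TMM factors, filterByExpr by group with a minimum count of 10, robust quasi-likelihood fits, Benjamini-Hochberg over all genes tested, threshold 0.05). One fit of 12 libraries blocked on tumour and had separate Dox terms for the evolving and independent classes. Another fit used the 8 libraries without Dox. The SE, from the change and its F statistic, is approximate. The code of the tests was first run on simulated counts. DESeq2 1.42.0, limma voom 3.58.1 and the settings named in the closing section were alternatives. As a check of the pairing by tumour number, the partners' deviations from group means correlated at 0.714, 0.645 and 0.56 in VTL-33, VTL-44 and VTL-81, and at 0.12, 0.00975 and 0.185 in VTL-21, VTL-25 and VTL-153. In the fit blocked on tumour, P-values measure the spread between tumours of the change with Dox, shared by both classes. In the fit of libraries without Dox they measure the spread of levels between tumours. Each tumour had 1 library per condition.

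Named genes were the 12 members with the largest difference and with the widest gap, the 6 most abundant, those at the edges of the rule, up to 6 per test by p, those near another member, those with extreme ratios of VTL-33 to the other independent tumours and the 4 genes most like the members. Other members were named by role after their names were seen. The values of 1 member, which counts among the 42, are not reported here. Positions are from GENCODE M21, in which all 42 members were found.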

Additional observations from a re-analysis of the deposited data

How the results depend on the processing

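Membership depended on the libraries compared. The rule gave 468 genes from the libraries without Dox only, and 54 (without VTL-24) to 225 (without VTL-44) when 1 tumour was left out. Leaving out a tumour can only widen a gap. Added after the data were seen, leaving out the libraries with myeloid markers above 1000 CPM (VTL-44 without Dox, VTL-81 with Dox) gave 74 genes, and leaving out the one with B cell markers above 1000 CPM (VTL-21 with Dox) gave 97, with all 42 members among them in both cases. Other pseudocounts left 42, TMM-scaled sizes 42 (41 shared, without Zfp282), reduced totals 46 (41 shared, without Bmp7) and a difference of at least 1 left 32. The number of members higher with Dox in every evolving tumour was 10, with 4 lower in every one. With 1 tumour left out it was 13 (12 lower, without VTL-21), 15 (5 lower, without VTL-25) and 18 (6 lower, without VTL-153), while the share of all genes considered that were higher moved from 14.6% to 21.9%, 23.5% and 28.1%. The number of members called for Dox in evolving tumours was 1 among 263 genes, 9 among 1314 by DESeq2, 0 among 73 with no replicate block, and 0 among 49 (without VTL-25) to 4 among 347 (without VTL-21) with 1 tumour left out. For the difference of Dox changes it was 0 among 15 genes, 3 among 549 by DESeq2, 0 among 1 with no replicate block, and 0 to 1 (among 58, without VTL-21) with 1 tumour left out. The estimate for Sema4c between evolving and dependent tumours ran from -2.50 (without VTL-19) to 0.31 (without VTL-24) with 1 tumour left out. The replicate block changed no other count of members called. The causes were not tested. Members with low levels rest on few counts, such as Calml4 with 12 counts over the 8 other libraries.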
